A study of Mus musculus with 19 samples.

Results

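The genes of the insulin receptor and phosphoinositide 3-kinase (PI3 kinase) module were described in mouse hearts, with 9 genes listed: Insr, Igf1r, Irs1, Irs2, Pik3r1, Pik3ca, Pik3cb, Akt1 and Akt2. Members were all array probes whose symbol in the deposited table of unnormalized signals is one of these names. This gave 14 probes out of 46643 on the array, for 8 of the 9 genes, since no probe carries the symbol Irs2. Hearts of 19 FVB/N mice were measured on Illumina bead arrays, 1 array per animal, all taken at zeitgeber time (ZT) 18, when mice are active, after 16 weeks of feeding. The normal diet group held 5 wild-type (WT) and 5 CCM mice, and the high fat group 4 WT and 5 CCM mice. CCM is the name the labels give to transgenic mice whose circadian clock does not work in cardiomyocytes, while their other cells keep it. These mice are known to carry a dominant-negative form of CLOCK under the cardiac alpha-myosin heavy chain promoter. The labels give neither age nor sex.

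Insulin and insulin-like growth factors bind receptor tyrosine kinases on the cell surface, which phosphorylate the insulin receptor substrate proteins. These recruit PI3 kinase, a dimer of a regulatory and a catalytic subunit, and the lipid it makes brings the AKT kinases to the membrane, where they are activated. In the heart this cascade is known for promoting glucose uptake, protein synthesis and physiological growth, and for holding FOXO transcription factors out of the nucleus. The question asked of the 14 probes was whether their signals differ between the genotypes, between the diets, and whether the diet difference depends on the genotype.

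A probe was taken as detected where its deposited detection p-value was under 0.05, and 8 probes of 5 genes were detected on at least 4 of the 19 arrays and could be tested. The other 6 probes did not pass that filter. Values are log2 signals after background correction and quantile normalization, and a difference of 1 is a doubling. Tests were limma's moderated tests, adjusted by the Benjamini-Hochberg method over all 19840 probes tested, and a call means an adjusted p below 0.05. Errors after ± are standard errors of a fitted difference unless SD is named. Arrays detected between 17117 and 18731 probes each. As a check of the genotype labels, the 9 WT hearts read 7.53 ± 0.87 (SD) and the 10 CCM hearts 15.28 ± 0.18 (SD) on a Clock probe (ILMN_2600964), with no overlap. All 8 cardiomyocyte markers looked at, Myh6, Tnnt2 and Ryr2 among them, were tested, and their mean level lay between 14.35 and 14.89 in every animal.

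Promoter windows are shown for the adaptor gene whose signal differed between the genotypes and for Irs1. Irs1 is the docking gene with a tested probe, and its window holds a clock-type motif. The windows run from 250 bases before to 50 bases after an annotated gene start and come from RefSeq on build GRCm38.p6. They were found for 8 of the 9 genes (13 windows in all). Searched on both strands were the E-box CACGTG, which CLOCK and BMAL1 are known to bind, the D-box TTATGTAA of the PAR bZIP factors, and the FOXO motif GTAAACA. The sequences are in lower case, and capitals mark a motif match. Pik3r1 has a pair of annotated starts, at chr13:101768168-101768467 and chr13:101692581-101692880, both read on the minus strand, and the Irs1 window is chr1:82291390-82291689, also on the minus strand.
Pik3r1, upstream start: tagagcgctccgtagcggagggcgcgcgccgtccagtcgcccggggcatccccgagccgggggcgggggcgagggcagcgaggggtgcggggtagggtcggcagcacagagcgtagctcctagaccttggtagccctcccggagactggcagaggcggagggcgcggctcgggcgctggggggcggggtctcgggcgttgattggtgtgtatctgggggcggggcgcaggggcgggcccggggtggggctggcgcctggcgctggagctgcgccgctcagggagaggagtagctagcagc
Pik3r1, downstream start: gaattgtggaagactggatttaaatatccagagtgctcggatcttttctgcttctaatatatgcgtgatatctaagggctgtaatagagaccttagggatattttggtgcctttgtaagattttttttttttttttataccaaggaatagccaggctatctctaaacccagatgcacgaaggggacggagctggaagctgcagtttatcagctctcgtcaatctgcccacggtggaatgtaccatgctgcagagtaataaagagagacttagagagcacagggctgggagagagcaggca
Irs1: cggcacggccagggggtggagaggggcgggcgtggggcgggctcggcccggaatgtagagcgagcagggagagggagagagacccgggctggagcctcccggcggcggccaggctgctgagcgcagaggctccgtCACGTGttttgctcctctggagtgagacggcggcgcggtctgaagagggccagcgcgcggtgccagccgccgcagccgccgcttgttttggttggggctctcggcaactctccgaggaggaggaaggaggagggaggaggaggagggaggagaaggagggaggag
Neither Pik3r1 window holds any of the 3 motifs. The upstream one is 75.7% G and C and the downstream one 43.7%, against a median of 52.7% over all 32851 windows. The Irs1 window holds an E-box 115 bases before the start, and the Irs2 window, not printed here, holds one 44 bases before its start. One of the Akt1 windows holds a FOXO motif 161 bases before its start. Those are the 3 member windows with a match. Among all windows, 7.15% hold the E-box, 0.938% the D-box and 3.65% the FOXO motif. These matches describe letters in a window and say nothing of binding. Which start a probe reports on was not determined.

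Pik3r1 was the member whose signal differed between the genotypes. It encodes the p85 alpha regulatory subunit and its shorter forms, which hold the catalytic subunit stable and dock it to phosphorylated receptor substrates. Of its 3 probes, 1 (ILMN_2473531) was bright and detected on all 19 arrays, and its mean signal exceeded that of 93.35% of the probes tested. In WT hearts on the normal diet its log2 signals were 12.03, 12.03, 12.10, 11.73 and 11.90. In CCM hearts on the normal diet they were 11.52, 11.54, 11.22, 11.32 and 11.23. All 5 CCM animals lay below all 5 WT animals, a pattern that 1.41% of all probes tested had.

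On the high fat diet the WT hearts read 11.67, 11.83, 11.67 and 11.69 for this Pik3r1 probe. The CCM hearts on the high fat diet read 11.63, 11.20, 11.35, 11.09 and 11.33. The highest CCM animal, replicate 1 at 11.63, came within a small step of the lowest WT animal at 11.67, and the groups did not overlap, as for 2.46% of all probes tested. In the deposited linear signals, before normalization, WT hearts ranged from 3315.7 to 4375.55 on the normal diet and from 3222.21 to 4213.51 on the high fat diet. The corresponding CCM ranges were 2491.51 to 3188.61 and 2031.92 to 2749.3. The genotypes were thus apart within each diet also before the background correction and normalization applied here. Over both diets, the 10 CCM hearts (11.09 to 11.63) and the 9 WT hearts (11.67 to 12.10) did not overlap. Of all probes tested, 0.64% were lower in every CCM than in every WT heart.

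**Figure D1:**
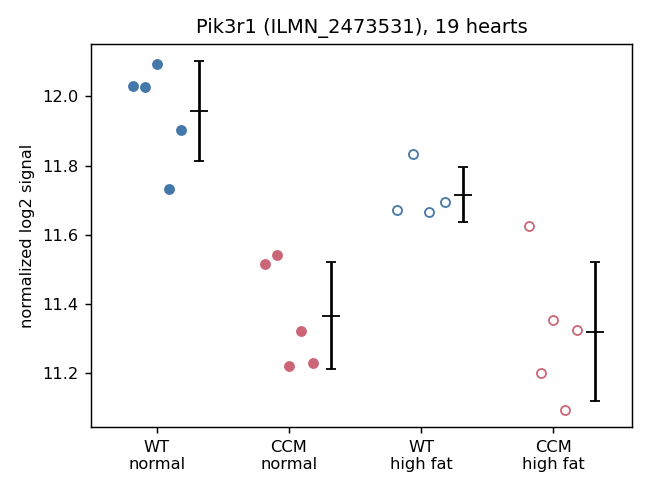
Normalized log2 signal of the bright Pik3r1 probe ILMN_2473531 in each of the 19 hearts (points), by genotype and diet, with the group mean and SD (bars); the axis does not start at 0. CCM hearts lie between 11.09 and 11.63 and WT hearts between 11.67 and 12.10.

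The mean Pik3r1 signal on the normal diet was 11.96 ± 0.14 (SD, n = 5) in WT and 11.37 ± 0.15 (SD, n = 5) in CCM hearts. The difference of -0.59 ± 0.10, or 1.51-fold lower in CCM, was called by limma (adjusted p = 0.00299, 95% interval -0.81 to -0.38). It stood at rank 114 by p among the 19840 probes. In this comparison 1 of the 8 tested member probes was called, beside 1.45% of all probes tested. With each of the 19 animals omitted in turn, the Pik3r1 difference stayed between -0.65 and -0.56, with limma adjusted p from 0.00131 to 0.0130.

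The mean Pik3r1 signal on the high fat diet was 11.72 ± 0.08 (SD, n = 4) in WT and 11.32 ± 0.20 (SD, n = 5) in CCM hearts. The difference of -0.40 ± 0.11 (1.32-fold, 95% interval -0.63 to -0.17) was not called by limma (adjusted p = 0.0886). None of the 8 member probes was called there, beside 1.59% of all probes tested, and Pik3r1 was the 1 with an unadjusted p under 0.05. Without CCM high fat replicate 1, the CCM heart nearest to WT, the difference was -0.47 with a limma adjusted p of 0.0278. A fit with a block for animals numbered under and over 20 gave -0.41 (limma adjusted p = 0.0385). Fits without background correction, with a median shift and with array weights also called it. It was further from a call in a fit of the compared groups alone (limma adjusted p = 0.202) and without WT high fat replicate 2 (-0.34, limma adjusted p = 0.256). Whether the genotype difference is larger on the normal than on the high fat diet was tested by the interaction, which was 0.20 ± 0.15 for Pik3r1 (limma adjusted p = 0.9999, 95% interval -0.12 to 0.51).

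Averaged over the diets, Pik3r1 was 1.41-fold lower in CCM than in WT hearts, at -0.49 ± 0.08 on the log2 scale (limma adjusted p = 0.000342). In that average 1 of the 8 member probes was called, beside 4.15% of all probes tested. Animals numbered under 20 and over 20 in the labels (10 and 9 animals) were also fitted apart, which leaves fewer animals in each fit. The averaged difference was -0.48 (limma adjusted p = 0.0898) in the former and -0.55 (limma adjusted p = 0.0566) in the latter, neither of which passed. On the normal diet the same fits gave -0.60 (limma adjusted p = 0.244) and -0.63 (limma adjusted p = 0.120). The high fat diet gave -0.36 (limma adjusted p = 0.632) and -0.47 (limma adjusted p = 0.731). The differences in the parts were close in size to those over all animals.

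In whole heart tissue, fewer cells of a type and less RNA per cell cannot be told apart, and at a single time point a lower level and a shifted daily rhythm cannot be told apart either. The mean level of erythroid markers lay lower in CCM on the normal diet. Of 6 listed, 4 were tested, none was called, and all 4 were below 0 (median log2 difference -0.65). Their mean level ran from 11.19 to 11.97 in CCM and from 12.06 to 12.52 in WT hearts on that diet, and from 11.58 to 12.39 against 12.17 to 12.45 on the high fat diet. Of the smooth muscle and pericyte markers, 5 of 6 were tested (Cnn1 was too dim) and 1 of them, Acta2, fell in CCM on the high fat diet (-0.69 ± 0.17, limma adjusted p = 0.0452) and in the average (-0.49 ± 0.12, limma adjusted p = 0.0200). Of the 5, 2 were above and 3 below 0 in both of these comparisons. The mean level of that list was 9.51 to 9.81 in CCM and 9.69 to 10.42 in WT hearts on the high fat diet. Other lists leaned one way without a call. All 3 tested of 6 adipocyte markers were above 0 on the normal diet (median 0.69) and below 0 on the high fat diet (-0.58), with Plin1, Retn and Lep too dim. Their mean level ran from 6.66 to 8.84 in CCM and 6.22 to 7 in WT hearts on the normal diet, and from 5.89 to 7.61 and 6.55 to 7.86 on the high fat diet. All 6 tested of 7 fibroblast markers were above 0 on the normal diet (median 0.19) and in the average (0.14), and 4 of the 6 on the high fat diet (0.12). Their mean level was 9.92 to 10.25 in CCM and 9.65 to 10.14 in WT hearts on the normal diet, and 10.09 to 10.27 and 9.93 to 10.27 on the high fat diet. For macrophages 8 symbols were listed, of which Adgre1 and Emr1 name the same gene. All 5 tested macrophage markers were below 0 on the normal diet (median -0.15) and 1 of the 5 on the high fat diet (median 0.06). Their mean level was 8.46 to 9.34 in CCM and 8.69 to 9.34 in WT hearts on the normal diet, and 8.87 to 9.16 and 8.48 to 9.32 on the high fat diet. None of the 8 cardiomyocyte and none of the 8 endothelial markers was called in either genotype comparison or in their average. The part of these cell types in the Pik3r1 difference was not tested.

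The remaining Pik3r1 probes gave no information on the difference. ILMN_2726359 lists the same accession as the bright probe (NM_001024955.1), and ILMN_1249335 lists another transcript (NM_001077495.1). Neither was detected on any of the 19 arrays, with detection p-values of at least 0.058 and at least 0.6232. Their deposited signals were 86.87 to 107.82 and 63.6 to 81.26, so the genotype difference of Pik3r1 rests on 1 probe. Which forms of the transcript that probe reports on cannot be read from these files, which give no probe sequence.

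The catalytic subunits were measured by 1 probe each. Pik3ca encodes p110 alpha, the catalytic partner known to carry most insulin signalling to PI3 kinase, and its probe was not detected on any array (deposited signals 77.6 to 96.32). Pik3cb encodes p110 beta, which is also coupled to G protein signals, and its probe (ILMN_1246890) was detected on all 19 arrays. Pik3cb read 10.11, 10.09, 10.17, 10.27 and 10.34 in WT and 10.01, 10.11, 10.12, 10.19 and 10.30 in CCM hearts on the normal diet. It read 10.21, 9.99, 10.11 and 10.28 in WT and 9.98, 9.997, 10.07, 10.15 and 10.13 in CCM hearts on the high fat diet. The 4 groups overlapped throughout. The genotype difference of Pik3cb was -0.05 ± 0.08 on the normal and -0.08 ± 0.09 on the high fat diet (limma adjusted p = 0.997 and 0.883). Its 95% intervals, -0.22 to 0.12 and -0.26 to 0.10, hold 0 and do not reach the size of the Pik3r1 differences.

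**Figure D2:**
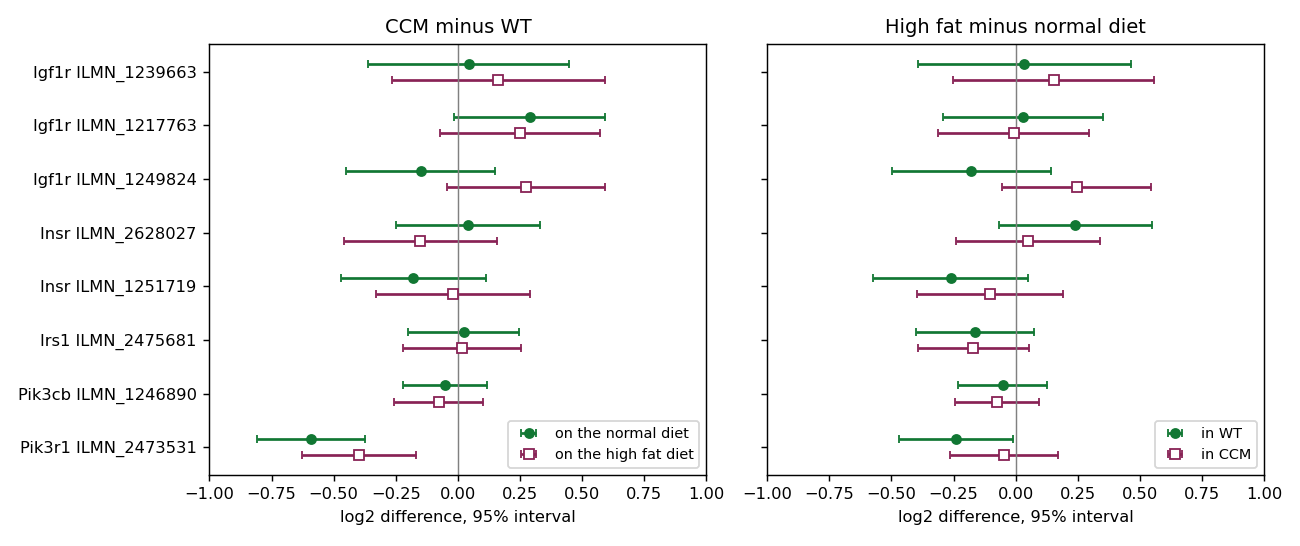
Fitted log2 differences with 95% intervals for the 8 member probes tested, as CCM minus WT on each diet (left) and high fat minus normal diet in each genotype (right). The interval of Pik3r1 lies below 0 on both diets in the left panel, at -0.59 and -0.40, and every other interval in that panel holds 0.

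The receptors were measured by 5 tested probes, mostly dim. Igf1r encodes the receptor of insulin-like growth factor 1, and its brightest probe (ILMN_1249824) was detected on all 19 arrays. It read 8.91, 8.87, 8.81, 8.24 and 8.96 in WT and 8.62, 8.70, 8.41, 8.84 and 8.49 in CCM hearts on the normal diet. Hearts on the high fat diet read 8.83, 8.69, 8.62 and 8.19 in WT and 8.90, 8.94, 9.07, 8.64 and 8.72 in CCM hearts. One WT animal in each diet group, replicate 4 in both, lay below all others of its group, and the genotypes overlapped on both diets.

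The genotype difference of this Igf1r probe was -0.15 ± 0.14 on the normal and 0.27 ± 0.15 on the high fat diet (limma adjusted p = 0.969 and 0.635). The difference between the diet effects was 0.42 ± 0.21, which did not pass (limma adjusted p = 0.9999, 95% interval -0.01 to 0.86). No probe out of 19840 was called for that interaction (0%), and 511 had an unadjusted p under 0.05. That is a smaller share than the 0.05 that chance alone would give. The other Igf1r probes were detected on 15 (ILMN_1239663) and 17 (ILMN_1217763) arrays, near background. ILMN_1217763 was 0.27 ± 0.11 higher in CCM averaged over the diets (limma adjusted p = 0.220), the next smallest p of a member in that comparison after Pik3r1. It read 5.69 to 6.39 in CCM and 5.40 to 6.04 in WT hearts, which overlap. The 3 Igf1r probes gave averaged genotype differences of 0.10 ± 0.14, 0.27 ± 0.11 and 0.06 ± 0.10, none of them called.

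Insr encodes the insulin receptor itself. Its probes were dim: ILMN_2628027 was detected on 10 arrays and ILMN_1251719 on 9. ILMN_2628027 ranged from 5.02 to 5.72 in WT and 5.33 to 5.53 in CCM hearts on the normal diet, and from 5.32 to 5.86 and 5.14 to 5.76 on the high fat diet. ILMN_1251719 ranged from 5.43 to 6.15 and 5.27 to 5.77 on the normal diet, and from 5.21 to 5.61 and 5.27 to 5.58 on the high fat diet. Groups overlapped for both probes. The probes had opposite signs for the diet in WT, 0.24 ± 0.15 against -0.26 ± 0.15, and neither was called. Near background a fold is understated, so these probes bound the change of Insr less tightly than their intervals read.

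Outside the symbol rule, a pair of probes carries D630014A15Rik, which the RefSeq gene table lists as an older name of Insr. Both were detected on all 19 arrays and neither was called in any comparison. ILMN_1242794 had an averaged genotype difference of -0.09 ± 0.07 and ILMN_3162159 one of 0.18 ± 0.12 (limma adjusted p = 0.730 and 0.648). A probe with an older name of Pik3ca, 6330412C24Rik, was not detected on any array.

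The docking protein Irs1, an insulin receptor substrate, had 1 bright probe (ILMN_2475681, detected on all 19 arrays) and 1 that was not detected. The bright Irs1 probe read 10.68, 10.58, 10.52, 10.67 and 10.54 in WT and 10.44, 10.57, 10.48, 10.89 and 10.74 in CCM hearts on the normal diet. On the high fat diet it read 10.80, 10.39, 10.38 and 10.17 in WT and 10.34, 10.45, 10.53, 10.52 and 10.41 in CCM hearts. WT high fat replicate 1 was the highest of its group by a wide step, and the other 3 WT animals on that diet lay below every WT animal on the normal diet. The genotype difference of Irs1 was 0.02 ± 0.11 on each diet (limma adjusted p = 0.997 and 0.991), with 95% intervals of -0.20 to 0.25 and -0.22 to 0.25.

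The AKT kinases downstream could not be tested. Akt1 encodes the AKT kinase known for heart growth and Akt2 the one known for insulin-stimulated glucose uptake. The Akt1 probe was not detected on any array (deposited signals 73.12 to 91.14). The Akt2 probe was detected on 1, in the CCM group on the high fat diet (deposited signals 77.35 to 113.98 over all arrays). A probe that is not detected does not show that its transcript is lacking.

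**Figure D3:**
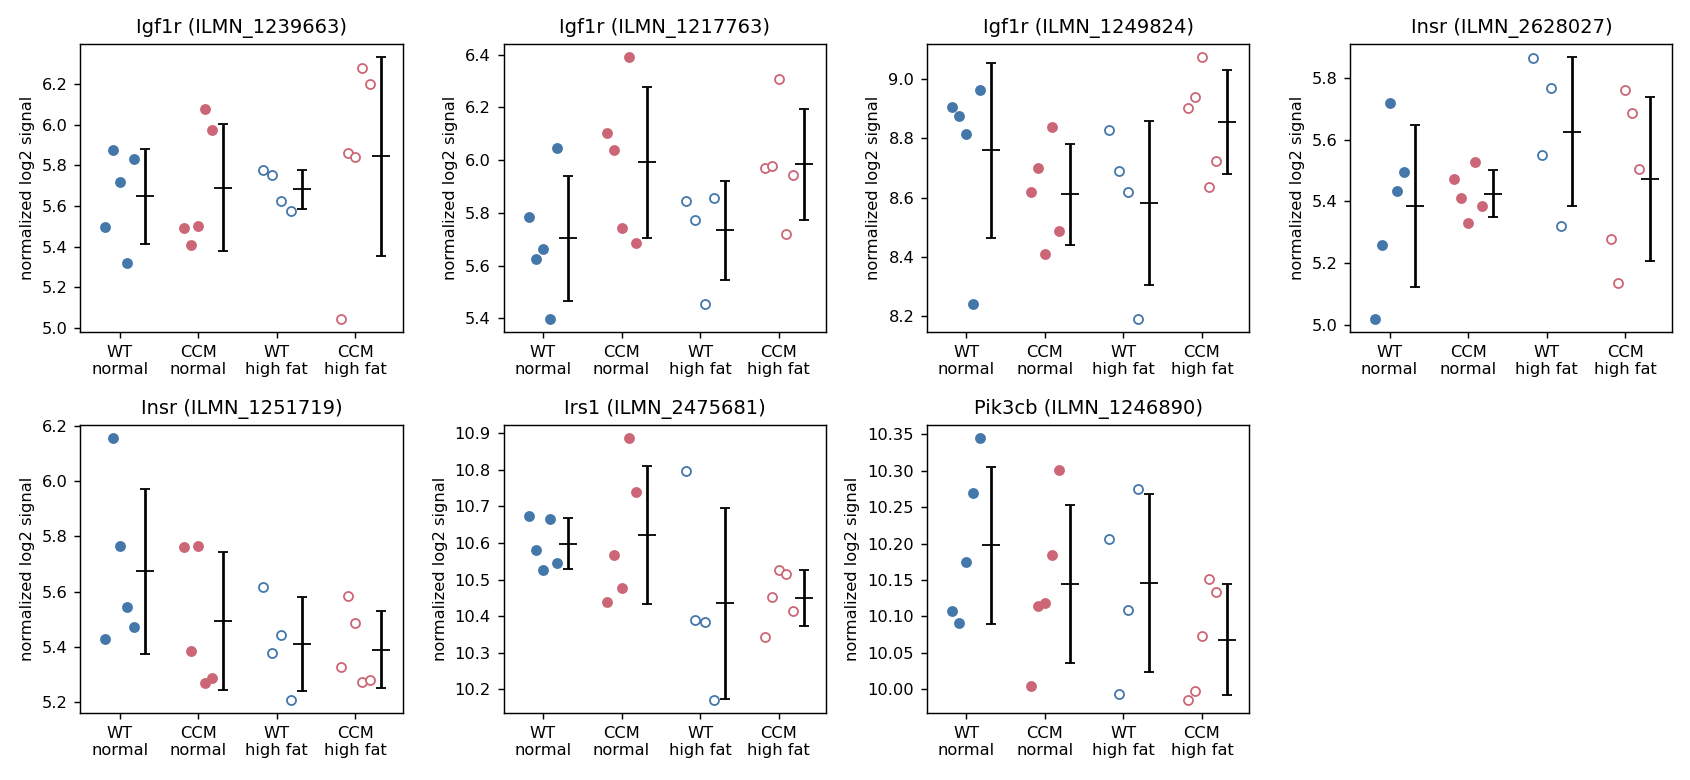
Normalized log2 signal of the 7 other tested member probes in each of the 19 hearts (points), by genotype and diet, with group mean and SD (bars); each panel has its own axis, which does not start at 0. CCM and WT hearts overlap on both diets for all 7 probes.

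No member was called for the diet. In WT hearts 0 of the 8 member probes were called by limma, beside 0.0252% of all probes tested, and Pik3r1 was 0.24 ± 0.11 lower on the high fat diet (log2 difference -0.24, limma adjusted p = 0.9998, 95% interval -0.47 to -0.01). It was the 1 member probe with an unadjusted p under 0.05 in WT hearts, and WT animals on the 2 diets overlapped. Of all 19840 probes tested, 590 had such a p in WT hearts, a smaller share than the 0.05 that chance alone would give. For the diet in CCM hearts 1676 had one, a larger share. In CCM hearts 0 of the 8 were called and 0 had an unadjusted p under 0.05, beside 0.0151% of all probes called, and Pik3r1 differed by -0.05 ± 0.10 (limma adjusted p = 0.898). Averaged over the genotypes, 0 of the 8 were called by limma, beside 0.237% of all probes, and 1 had an unadjusted p under 0.05. That was Irs1, -0.17 ± 0.08 (limma adjusted p = 0.624), with -0.16 ± 0.11 in WT and -0.17 ± 0.11 in CCM hearts. The averaged diet difference of Pik3r1 was -0.14 ± 0.08 (limma adjusted p = 0.626).

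Around the members, 109 other genes of the pathway were listed in 9 groups by role, and 88 of them were tested, each by its detected probe of highest mean. In CCM 1 rose and 0 fell on the normal diet (1.14%, against 1.45% of all probes), and 2 rose with 0 falling on the high fat diet (2.27%, against 1.59%). In the average 2 rose and 1 fell (3.41%), close to the 4.15% of all probes. The median log2 difference of the 88 genes in that average was 0.0018, against 0.0038 over all probes tested. For the diet, 1 rose in WT hearts (1.14%, against 0.0252% of all probes), none in CCM hearts (0%, against 0.0151%), and 2 rose in the average over genotypes (2.27%, against 0.237%). None fell with the diet. The lists were chosen with earlier results of these data known, so these shares are a description and not a test.

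Among the 8 tested of 11 other PI3 kinase subunits, Pik3r3 was called. It encodes p55 gamma, a smaller regulatory subunit that can take the place of p85 in the dimer. Pik3r3 (ILMN_1248521) read 9.87, 10.08, 9.72, 9.81 and 9.93 in WT and 10.32, 10.41, 10.36, 10.003 and 10.23 in CCM hearts on the normal diet. High fat values were 9.73, 9.86, 9.91 and 9.70 in WT and 10.56, 10.28, 10.55, 10.10 and 10.13 in CCM hearts. On the normal diet the highest WT animal exceeded the lowest CCM animal, and on the high fat diet every CCM animal was higher, as for 2.29% of all probes tested. Pik3r3 was 1.37-fold higher in CCM averaged over the diets (0.45 ± 0.08, limma adjusted p = 0.00133), the opposite direction to Pik3r1.

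Among animals on the high fat diet, Pik3r3 was higher in CCM than in WT hearts (0.52 ± 0.12, limma adjusted p = 0.0210), while 0.38 ± 0.11 on the normal diet did not pass (limma adjusted p = 0.111). The high fat call ended without CCM replicate 1 (limma adjusted p = 0.0664), CCM replicate 3 (0.0731), WT replicate 1 (0.0738) or WT replicate 4 (0.0844) of that diet. A further Pik3r3 probe (ILMN_1226157) gave 0.43 ± 0.09 in the average (limma adjusted p = 0.00738) and 0.55 ± 0.13 on the high fat diet (limma adjusted p = 0.0410). The remaining regulatory and catalytic subunits tested were not called, and Pik3c3, the class III lipid kinase, was next by p in the average (-0.14 ± 0.06, limma adjusted p = 0.365). Pik3r2, the p85 beta gene, picked after its values were seen, read 5.41 ± 0.40 (SD, n = 5) in WT and 5.55 ± 0.50 (SD, n = 5) in CCM hearts on the normal diet and was detected on 2 arrays of each group.

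Trib3 (ILMN_1225528) was called among the 13 tested of 17 inhibitors of insulin signalling. The other Trib3 probes were detected on 2 (ILMN_1252762) and 0 (ILMN_1244279) arrays and not tested, so its values rest on 1 probe. Trib3 encodes a pseudokinase that binds AKT and is induced by nutrient and endoplasmic reticulum stress. Trib3 read 7.02, 7.70, 7.55, 7.71 and 7.71 in WT and 8.04, 7.98, 8.13, 7.85 and 8.20 in CCM hearts on the normal diet. High fat values were 7.82, 7.94, 8.07 and 7.78 in WT and 8.78, 8.77, 8.90, 8.61 and 8.54 in CCM hearts. Every CCM animal lay above every WT animal of the same diet, as for 1.33% of all probes tested on the normal diet and 2.29% on the high fat diet.

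Trib3 rose in CCM by 0.50 ± 0.12 on the normal diet (limma adjusted p = 0.0465) and by 0.82 ± 0.13 on the high fat diet (limma adjusted p = 0.00109). The normal diet call ended with the omission of any of 16 of the 19 animals (without CCM normal replicate 3 the limma adjusted p was 0.112, the highest). The animals whose omission kept it were CCM normal replicate 4 and WT normal replicates 4 and 5. Without WT normal replicate 1, the lowest WT animal at 7.02, the normal diet difference was 0.37 (limma adjusted p = 0.0801). Trib3 also rose with the high fat diet averaged over the genotypes (0.52 ± 0.09, limma adjusted p = 0.0126). Next by p among the inhibitors in the averaged genotype comparison was Enpp1, an ectoenzyme that can bind the insulin receptor (0.31 ± 0.10, limma adjusted p = 0.0830). Grb10, an adaptor that restrains the receptor, had -0.35 ± 0.10 on the normal diet (limma adjusted p = 0.0916).

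Of the 5 tested of 7 insulin-like growth factor binding proteins, Igfbp5 fell in CCM in the average. Igfbp5 (ILMN_1254358) ranged from 12.56 to 13.07 in WT and 11.60 to 12.71 in CCM hearts on the normal diet, and from 12.47 to 13.10 and 11.93 to 12.42 on the high fat diet. The groups overlapped on the normal diet and lay apart on the high fat diet, where 2.46% of all probes tested were lower in every CCM heart. The averaged difference was -0.58 ± 0.13 (1.49-fold lower, limma adjusted p = 0.00998), and neither diet alone passed (limma adjusted p = 0.199 and 0.137). A further Igfbp5 probe, ILMN_2682613, gave -0.48 ± 0.12 in the average (limma adjusted p = 0.0269). The 4 ligand genes, Igf1, Igf2, Ins1 and Ins2, were tested and none was called in any comparison.

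**Figure D4:**
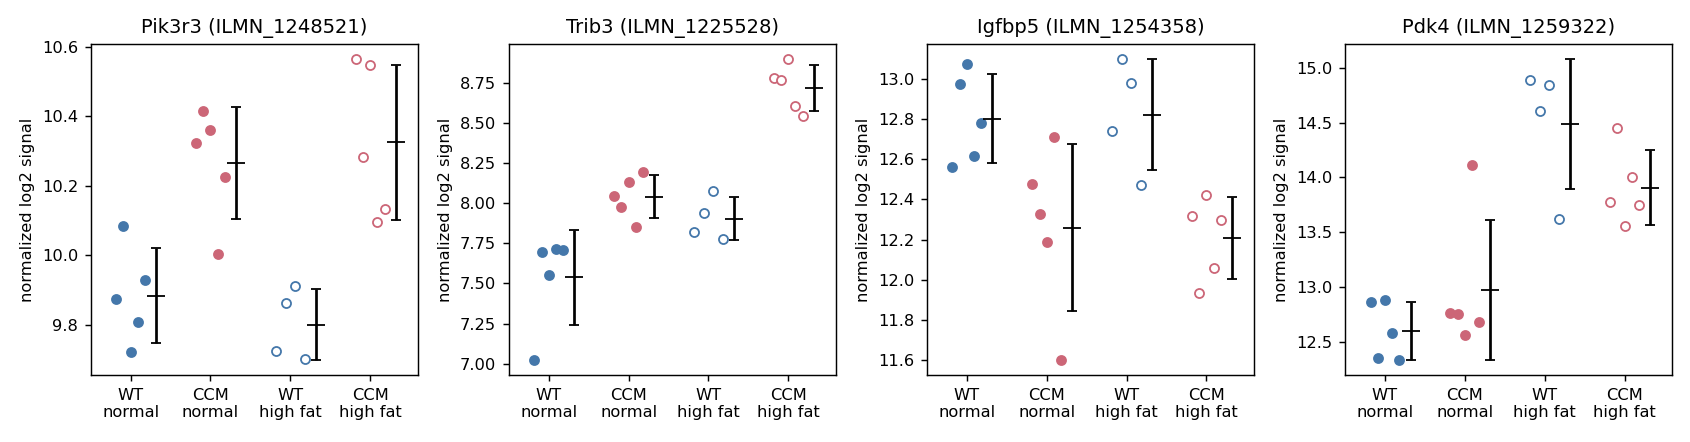
Normalized log2 signal of the 4 pathway genes outside the member list that were called in a comparison, Pik3r3, Trib3, Igfbp5 and Pdk4, in each of the 19 hearts (points), with group mean and SD (bars); each panel has its own axis, which does not start at 0. Trib3 is higher in CCM than in WT on both diets, and Pdk4 is higher on the high fat diet in WT, with 1 CCM animal on the normal diet at 14.11.

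Among genes that FOXO factors are known to drive when AKT is inactive, 17 of 20 were tested and none was called in either genotype comparison or in their average. Sesn1, a stress-induced regulator of growth signalling, had the smallest p of the list in the average (-0.28 ± 0.09, limma adjusted p = 0.0931). Pdk4, the kinase that shuts off pyruvate dehydrogenase, rose with the high fat diet in WT hearts by 1.89 ± 0.29 (limma adjusted p = 0.0204). It read 12.86, 12.36, 12.88, 12.58 and 12.33 in WT hearts on the normal diet and 14.89, 14.60, 14.84 and 13.62 on the high fat diet, without overlap. In CCM hearts Pdk4 read 12.76, 12.75, 12.56, 14.11 and 12.68 on the normal and 13.77, 14.45, 13.55, 14.01 and 13.75 on the high fat diet, where replicate 4 on the normal diet overlapped the high fat group.

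The diet difference of Pdk4 in CCM hearts, 0.93 ± 0.28, did not pass (limma adjusted p = 0.552), and the difference between the genotypes' diet effects did not either (-0.95 ± 0.40, limma adjusted p = 0.9999). Averaged over the genotypes it was 1.41 ± 0.20 (limma adjusted p = 0.00263). The call in WT ended without WT high fat replicate 1 (limma adjusted p = 0.118), 2 (0.0781) or 3 (0.135), or WT normal replicate 1 (0.0540), 2 (0.0610) or 5 (0.0848). A dim further probe, ILMN_1216259, detected on 7 arrays, read -0.13 ± 0.12 for Pdk4 in WT.

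The other 5 groups held no called gene in any of the 7 comparisons. These were the 4 ligands, the 8 tested of 14 other receptors and adaptors, the 6 of 8 lipid phosphatases, the 13 of 13 other kinases of the cascade and the 14 of 16 AKT substrates and effectors. In the list of other kinases, Rptor, listed there as the scaffold of the mTORC1 kinase complex, had the smallest p in the averaged genotype comparison (0.19 ± 0.06, limma adjusted p = 0.0865). Among the AKT substrates and effectors, Pfkfb2, a heart enzyme that stimulates glycolysis, had -0.26 ± 0.10. The glucose transporter gene Slc2a1 of that list also had -0.26 ± 0.10 (limma adjusted p = 0.195 and 0.199).

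Animals were then compared within groups, taking each animal's deviation from its group mean for the brightest tested probe of the 5 member genes. Of the 10 pairs, Pik3r1 and Pik3cb, the regulatory and the catalytic subunit, had the strongest relation. Over 19 animals Pearson's r was -0.60 (permutation p = 0.00738, adjusted over the 10 pairs 0.0738) and Spearman's rho was -0.62 (permutation p = 0.00528, adjusted 0.0528). Without the 2 animals farthest from the median of Pik3r1, r was -0.56. Within animals numbered under 20 and over 20, r was -0.42 in each. The relation did not pass the adjustment.

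The correlation of the deviation with the mean signal of the array was -0.42 for Pik3r1, 0.35 for Pik3cb and -0.51 for Igf1r, over 19 arrays. The part of array brightness in the relation was not tested. Insr and Pik3cb were next (Pearson's r -0.53, permutation p = 0.0194, adjusted 0.0972; Spearman's rho -0.51, permutation p = 0.0264, adjusted 0.132), with r of -0.49 without the 2 farthest animals. Insr stood here by ILMN_1251719, which was near background and detected on 9 arrays. Within the parts of the animals Insr and Pik3cb had r of 0.05 and -0.83, so the relation did not hold in both. No pair passed the adjustment.

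**Figure D5:**
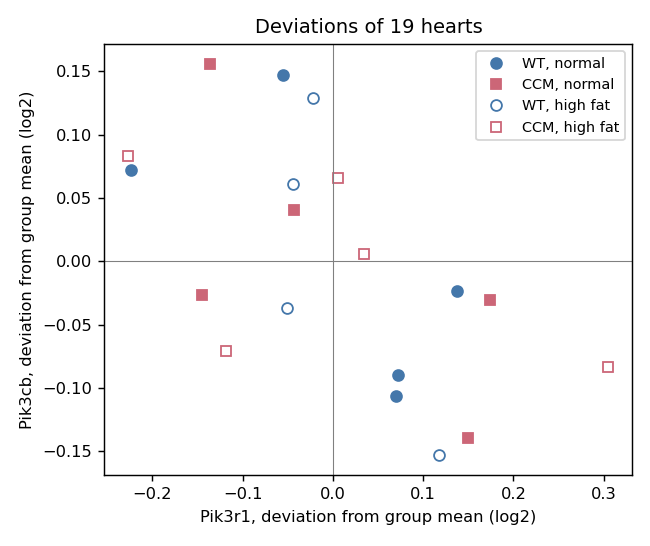
Deviation of each of the 19 hearts from its group mean (log2) for Pik3r1 (x axis) and Pik3cb (y axis), with symbols for the 4 groups. Hearts with more Pik3r1 than their group tended to read lower for Pik3cb, with r of -0.60 and an adjusted permutation p of 0.0738.

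The genes whose log2 signals were most like each member over all 19 animals are given as a description, since animals of a genotype share their difference. For Pik3r1, Lonrf1 was among these (Pearson's r 0.90). Lonrf1 averaged 7.73 and 7.37 in WT and 5.80 and 5.88 in CCM hearts on the normal and the high fat diet, so its mean was lower in CCM on each diet, as that of Pik3r1 was. For Igf1r they were Slc43a3 (0.86) and Atp13a3 (0.83), for Pik3cb Grsf1 (0.83) and Erf (0.82), for Insr Phykpl (0.79) and Cdk5rap3 (0.76), and for Irs1 Timp4 (0.66) and Map3k6 (0.63). Without the 2 farthest animals, r with Insr was 0.77 for Phykpl and 0.48 for Cdk5rap3.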

How the data were processed

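Heart RNA of 19 mice was measured, 1 array per animal, and groups were taken from the labels. The authors deposited average bead intensities, not normalized, and a detection p-value for each probe and array, per the file headers. A table of the authors' normalized intensities was also deposited and served as an alternative. The submitters' processing notes name BeadStudio 3. The sources used here do not give its settings for background. Signals were background corrected (detection p-values, offset 16), quantile normalized and put on the log2 scale with neqc in limma 3.58.1 (R 4.3.3). Probes with a detection p under 0.05 on at least 4 of 19 arrays were kept, 19840 in all. A mean per group was fitted with limma's lmFit and eBayes (degrees of freedom 15 residual, 3.67 prior), the 7 comparisons were read from it, and p-values were two-sided and adjusted over all 19840 probes. Permutation tests of correlations drew 100000 resamples and were two-sided. They did not allow for the group means removed beforehand, so their p-values are somewhat too small. The number of arrays and the signal over background limit the precision.

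The mean signal of an array lay between 418.75 and 580.37. No pair of arrays held the same signal on more than 0.00214% of probes. The members and gene lists were chosen with earlier results of these data known. The text names every member probe, in each comparison up to 2 genes of smallest p and every called gene of each pathway list, the 2 genes most like each member, and Clock. Some results that this rule would name are not reported here. Symbols of other genes were updated through the RefSeq table on GRCm38.p6. The fit was tested on simulated data. Alternatives were no background correction, a shift of each array to a common median, the authors' normalized values, no detection filter, detection on all arrays (14386 probes), 1 probe per gene (14761 symbols), a trended and robust eBayes, array weights, a block for animals numbered under and over 20, omission of the 3 arrays of lowest mean signal, fits of the compared groups alone and omission of each animal. Fits within the animals numbered under 20 and over 20 were added after seeing the data. What the animal numbers stand for is not given.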

Additional observations from a re-analysis of the deposited data

Results flagged for a closer look

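Within each of the 4 groups, the highest and the lowest animal were set against the others for the 8 tested member probes, 32 sets in all, and 2 had an animal standing apart. Chance flags about 1 in 20 such sets, so 2 of 32 is near that rate. The bright Igf1r probe (ILMN_1249824) read 8.24 in WT normal replicate 4, while the other 4 animals of the group read 8.81 to 8.96. The gap was 0.793 of the group's range. The bright Pik3r1 probe (ILMN_2473531) read 11.83 in WT high fat replicate 2, while the other 3 read 11.67 to 11.69, a gap of 0.832 of the range. Without that animal the Pik3r1 difference between the genotypes on the high fat diet was -0.34 (limma adjusted p = 0.256), against -0.40 with it.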

How the results depend on the processing

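No paired analysis was possible because the labels give no replicate number shared between groups. Pik3r1 (ILMN_2473531) kept its direction under every alternative and omission in both genotype comparisons and their average. Apart from the omissions and the fits within parts of the animals, the normal diet difference ran from -0.62 to -0.54 (limma adjusted p up to 0.0220) and the averaged one from -0.52 to -0.47 (up to 0.00076). The count of member probes called on the normal diet and in the average, 1 each, fell to 0 within the animals numbered under 20 and within those over 20, fits with fewer animals. On the high fat diet the count rose from 0 to 1, Pik3r1, with no background correction (limma adjusted p = 0.0475), the median shift (0.0421), array weights (0.0473) and the block on animal numbers (0.0385). With each animal omitted in turn the counts were 1 to 1 on the normal diet, 1 to 1 in the average and 0 to 1 on the high fat diet, the 1 being without CCM high fat replicate 1. Correlated pairs of members passing the adjustment rose from 0 to 1 without the 3 arrays of lowest mean signal (Insr and Pik3cb, r -0.68, adjusted permutation p = 0.0355, n = 16). That p-value is somewhat too small, since the permutation did not allow for the group means removed, and the Insr probe is near background. This pair is therefore not established. The cause of these changes in counts was not tested. Of 648 values of the 56 member results under alternatives, 599 kept direction and side of the threshold, 4 lost and 4 gained a call, and 41 uncalled values changed sign. No called value changed sign. Among other pathway genes, Trib3 on the normal diet lost its call with the median shift (limma adjusted p = 0.0623), no detection filter (0.0700), trended and robust eBayes (0.0529) and the compared groups alone (0.211). Pik3r3 on the high fat diet and Pdk4 in WT lost theirs in the compared groups alone (0.0889 and 0.0696), and Pdk4 also without a detection filter (0.0508). Without the 3 dimmest arrays the values were 0.114 for Trib3, 0.166 for Pik3r3 and 0.110 for Pdk4. All 3 calls, and that of Igfbp5 in the average (0.104 and 0.331), were lost within the animals numbered under 20 and over 20, as were those of Trib3 on the high fat diet (0.0731 and 0.390) and for the averaged diet (0.318 and 0.9999). The averaged genotype calls of Pik3r3 (0.30, limma adjusted p = 0.242) and Trib3 (0.51, 0.0929) and the averaged diet call of Pdk4 (1.06, 0.9999) were lost within the animals numbered over 20 alone. Probes near background, those with the symbol Insr and the dim ones of Igf1r, set no tight limit on their genes. The 6 probes not tested set none either.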
